A study of Mus musculus with 15 samples.

Results

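Postnatal differentiation of the mouse cerebellar granule cell lineage was examined by comparing polyadenylated RNA of cells isolated at P14, postnatal day 14, with that of cells isolated at P1, postnatal day 1. The comparison used all libraries that the labels assign to these ages, 3 at P14 and 3 at P1, which are 6 of the 15 RNA-seq libraries in the study. Both groups are labelled as cerebellar granule neuron precursors (GNPs) of genotype WT, taken from cerebellum and purified by Percoll density fractionation before lysis in Trizol. Fractionation by density does not sort on a marker, so other cell types of similar density could be present at either age. The model also took in 3 further groups, only to estimate the spread between libraries. These were E15.5 GNPs of genotype Math1-GFP, WT GNPs at P7, and medulloblastoma cells labelled Ptch1 heterozygous. The study set out to find genes that increase as GNPs differentiate. Nothing in the labels says whether libraries of a group came from separate animals, so the p-values given here measure only the spread between these libraries, which may be technical.

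Granule neurons are the most numerous neurons of the brain. Their progenitors arise from the rhombic lip under the transcription factor Atoh1, spread over the cerebellar surface as the external granule layer, and divide there after birth in response to Sonic hedgehog released by Purkinje cells. Cells that leave the cycle extend parallel fibres, migrate inward past the Purkinje cells and mature in the internal granule layer, where they become glutamatergic neurons that carry Slc17a7 and, late in maturation, the GABA-A receptor subunits Gabra6 and Gabrd. The mouse external granule layer shrinks during the second and the third postnatal week.

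The granule lineage was visible in every library. Levels are given as CPM, counts scaled to a common library size, which allow a gene to be compared between libraries but not with other genes, since they are not divided by length. Zic1, a transcription factor of granule cells from progenitor to neuron, was at 1400, 1262 and 1650 CPM in P1 replicates 1 to 3 and at 1992, 1825 and 1962 in P14 replicates 1 to 3. Pax6, another factor of the lineage, lay between 423 and 509 CPM in all 6 libraries, and Barhl1 between 252 and 383. The libraries held 21550266 to 24962668 counts in genes at P1 and 28778026 to 31115364 at P14. In bulk RNA, fewer cells of a type and less RNA per cell cannot be told apart.

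The library labelled P1 replicate 3 stood between the ages. On the first principal component of the 6 libraries, which held 75.8% of the variance of log2 CPM, P1 replicates 1 and 2 scored -79 and -52.0, P1 replicate 3 scored -0.32, and the P14 libraries scored 42.1 to 46.7. Its place was then read gene by gene, over genes called at a 2-fold change or more in a fit that left it out, on a linear CPM scale where the mean of P1 replicates 1 and 2 is 0% and the mean of P14 is 100%. For 1091 genes higher at P14 the median place of P1 replicate 3 was 54.9% (quartiles 45.6% to 63.9%), and for 751 genes lower at P14 it was 61.5% (quartiles 53.6% to 69.4%). On a log2 CPM scale the medians were 70.7% and 47.0%, so which set lay nearer to P14 depends on the scale. Changes in the fits below are on the log2 scale. P1 replicate 3 lay strictly between the other P1 libraries and all P14 libraries in 91.9% of the first set and 94.0% of the second. Both sets were picked for a gap between those other libraries. The matching share was computed neither over all genes nor for P1 replicate 1 or 2. P1 replicate 3 exceeded all 3 P7 libraries in 57.7% of the genes higher at P14, although its label gives the younger age. Among the genes lower at P14, it was below all 3 P7 libraries in 29.8% and within their range in 36.2%. In the rest of that set it was above all 3, so most falls did not place it on the P14 side of P7. Shares against P7 were not computed for P1 replicate 1 or 2. Results below are therefore given with all libraries, and many are also given without P1 replicate 3. A change with no fit named is from all libraries. What sets P1 replicate 3 apart was not tested.

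**Figure D1:**
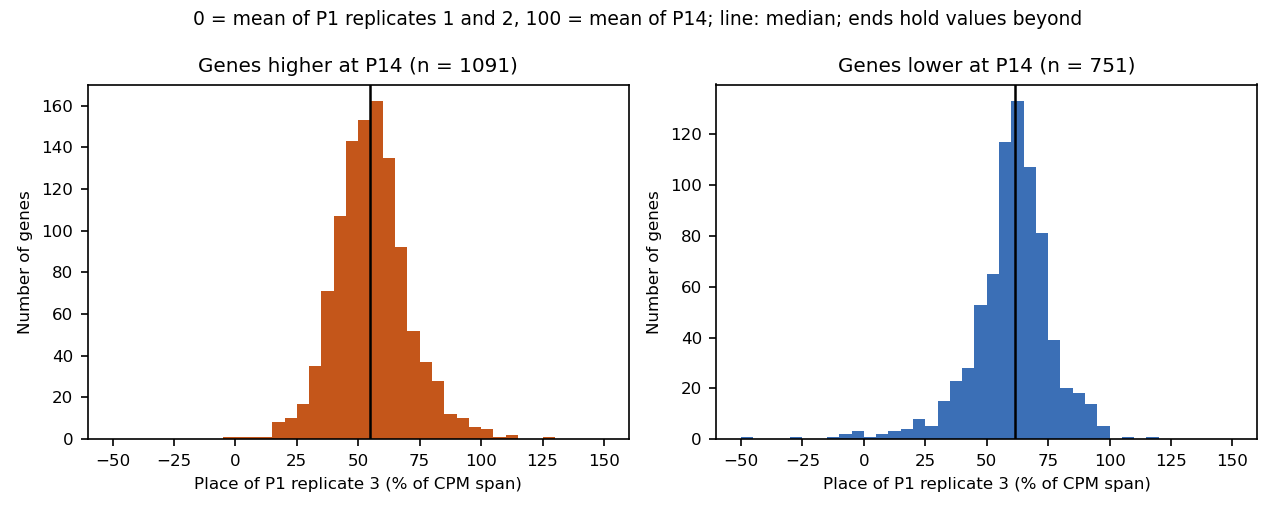
Place of P1 replicate 3 between the ages, as a percentage of the CPM span from the mean of P1 replicates 1 and 2 (0) to the mean of P14 (100). The left histogram holds 1091 genes higher at P14 with a median of 54.9%, the right one 751 genes lower at P14 with a median of 61.5%, and in both the bulk of genes lies between the 2 ends.

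With all libraries and edgeR, more genes fell than rose between P1 and P14. More of the falls held when a library other than P1 replicate 3 was left out. With all libraries, edgeR's quasi-likelihood test at a Benjamini-Hochberg adjusted p under 0.05 called 554 genes higher at P14 and 810 lower, of 15259 tested. These are 3.63% and 5.31% of all genes tested, or 8.94% in either direction, and are the background for every count of list members below. At least 2-fold changes were fitted for 316 of the higher and 500 of the lower genes. Without P1 replicate 3 the calls numbered 1476 higher and 1234 lower, which are 9.67% and 8.09% of genes and 17.8% together, and they held 1361 of the 1364 genes called with all libraries. Which direction had more calls depended on that library and on the tool, since DESeq2 called 1198 higher and 1196 lower with all libraries, and limma voom with sample weights 4146 and 3947. The voom weights of the 6 libraries were uneven, from 0.446 for P1 replicate 3 to 9.23 for P14 replicate 3. Leaving out any library other than P1 replicate 3 left 3 to 49 higher and 145 to 253 lower genes, with 3 and 167 without P1 replicate 1, 5 and 196 without P1 replicate 2, 49 and 253 without P14 replicate 1, 9 and 145 without P14 replicate 2, and 9 and 207 without P14 replicate 3. A set of 135 genes was called with all libraries and with each of the 6 left out in turn, and 132 of these were lower at P14. P1 replicate 3 was in every one of these fits except the fit that left it out. Its median place on the log2 scale, given above, was 70.7% for rises and 47.0% for falls. Whether that place bears on the split was not tested.

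The genes with the steepest falls included RNA-binding and chromatin proteins of fetal growth. Igf2bp1 encodes a fetal messenger RNA-binding protein (chr11:95818477-95867254, minus strand, mm9). Igf2bp1 stood at 54.8, 40.4 and 15.6 CPM in P1 replicates 1 to 3 and at 0.573, 0.452 and 0.401 in P14 replicates 1 to 3. Every P14 library was far below every P1 library, and the change was -6.27 ± 0.69 (SE) on the log2 scale (adjusted p = 0.000253). Hmga2, an architectural chromatin protein of proliferating embryonic cells, went from 7.68, 7.91 and 3.01 CPM to 0.202, 0.271 and 0.167 (-4.82 ± 0.43, adjusted p = 9.53e-05). Lin28b, which blocks maturation of let-7 microRNAs, went from 12.96, 8.72 and 6.67 CPM to 0.776, 0.603 and 0.836 (-3.67 ± 0.41, adjusted p = 0.000253). In these 3 genes P1 replicate 3 had the lowest of the P1 values and still lay several-fold above P14. Igf2bp3 changed by -3.17 ± 0.33 and Igf2bp2 by -2.82 ± 0.30 on the log2 scale, so all 3 Igf2bp paralogs fell. Hmga1, whose reads may be shared with pseudogene copies, changed by -1.22 ± 0.20. Of 15 tested members of this list of oncofetal genes, 6 were called lower and 0 higher, with a median log2 change of -1.22 against 0.0052 over all genes tested. All 6 calls held with each library left out in turn, and without P1 replicate 3 Igfbp5, a binding protein for insulin-like growth factors, made 7 (-1.73 ± 0.48, adjusted p = 0.0228).

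**Figure D2:**
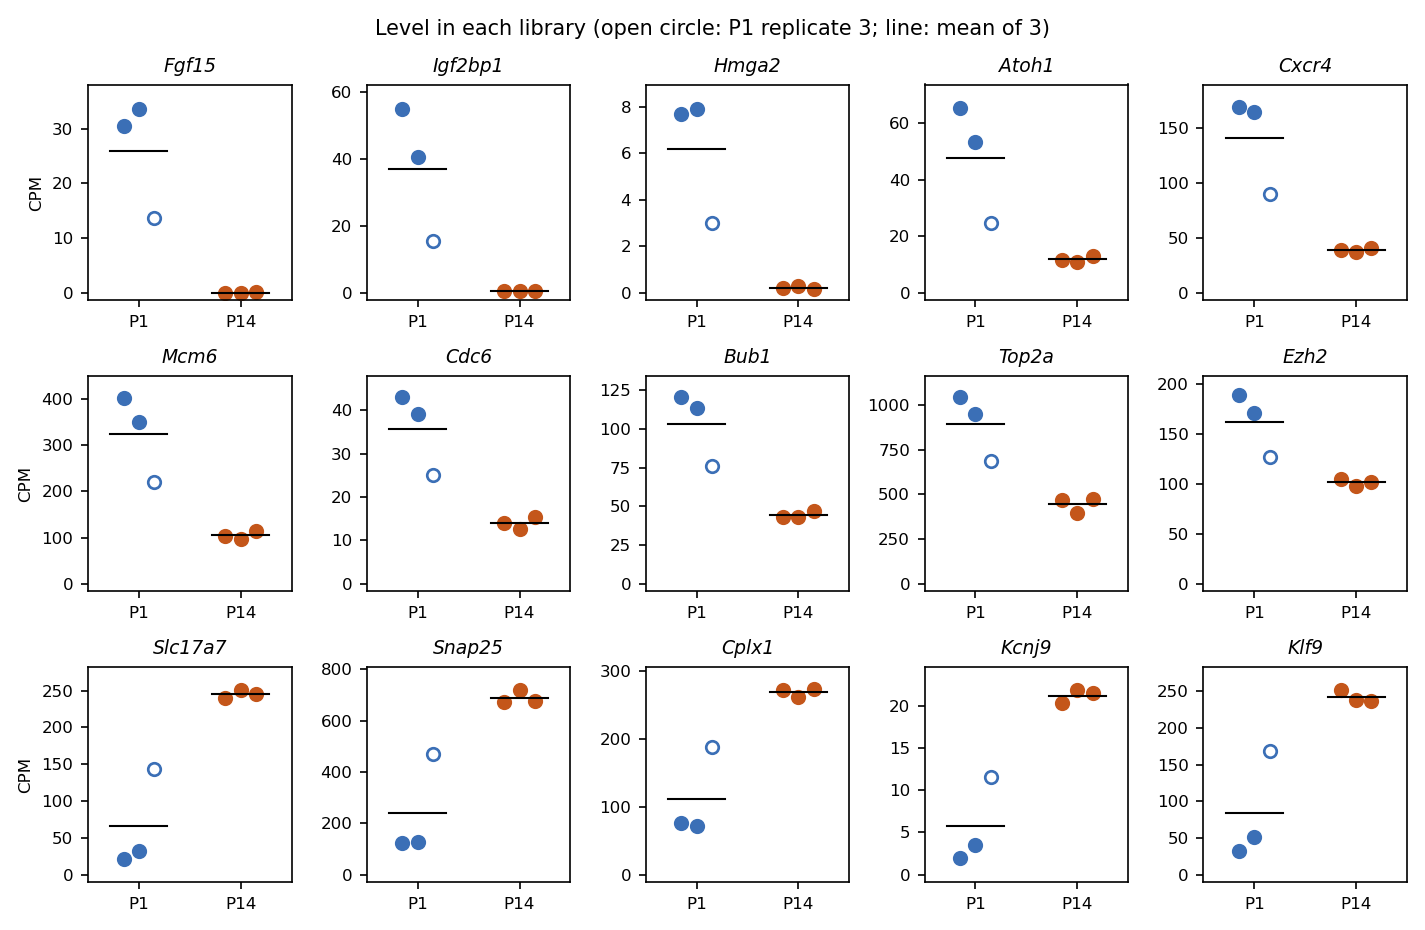
CPM of 15 genes in each P1 and P14 library, with an open circle for P1 replicate 3 and a line at the mean of 3 libraries. In genes that fell, such as Igf2bp1 and Mcm6, the open circle lies below the other P1 libraries, and in genes that rose, such as Slc17a7 and Snap25, it lies above them. In none of the 15 genes does it lie within the P14 values.

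Among 21 FGF and BMP signalling genes tested, Fgf15 and Fgf8 were called lower and 0 higher. Fgf15, a fibroblast growth factor of the embryonic hindbrain and midbrain, was at 30.6, 33.6 and 13.6 CPM at P1 and at 0.0337, 0 and 0.0669 at P14. The P1 libraries held 1942 counts and the P14 libraries 3, a ratio of scaled counts of 794 (exact 95% interval 271 to 3850, counting error only). Fgf8, the organiser signal of the midbrain and hindbrain boundary, was at 5.32, 4.46 and 1.09 CPM at P1, with 268 counts in P1 and 2 in P14, a ratio of 164 (45.0 to 1360). Both passed the test with all libraries (adjusted p = 9.53e-05 and 0.000327) and with each library left out. The other 19 genes were not called, and the list's median change was 0.20 on the log2 scale. The receptor Fgfr1 lay between 90.2 and 109 CPM in all 6 libraries. Bmp4 and Fgfr3 were called higher once P1 replicate 3 was left out (1.46 ± 0.45 and 1.16 ± 0.37 on the log2 scale).

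Sonic hedgehog pathway genes showed a downward median with few calls. Gli1, the transcription factor used as a readout of the pathway, was at 170, 127 and 79.9 CPM at P1 and at 61.9, 63.2 and 75.6 at P14. The groups did not overlap, but P1 replicate 3 was close to the highest P14 library, and the change of -0.91 ± 0.37 (log2) did not pass (adjusted p = 0.129, and 0.0540 without P1 replicate 3). Ptch1, the receptor and a target of the pathway, overlapped between the ages (-0.43 ± 0.28, adjusted p = 0.343). Of 19 tested members, the ligand gene Shh (-2.19 ± 0.59) and the co-receptor Boc (-0.73 ± 0.19) were called lower. Grk2, a kinase that acts on Smoothened (0.93 ± 0.17), and Sfrp1, known foremost as a Wnt antagonist (0.71 ± 0.20), were called higher. The list's median was -0.33 on the log2 scale, with 15 of 19 members below 0. Without P1 replicate 3 the median was -0.51, with 2 members called in each direction. Shh, Boc and Sfrp1 were called in none of the fits that left out a library other than P1 replicate 3, and Grk2 was lost without P1 replicate 1 and without P1 replicate 2.

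Atoh1, the factor that specifies granule progenitors, fell. It was at 65.4, 53.3 and 24.5 CPM in P1 replicates 1 to 3 and at 11.7, 10.9 and 13.1 in P14 replicates 1 to 3, a log2 change of -2.002 ± 0.29 (adjusted p = 0.00151). The 3 P14 values were close together and lay below P1 replicate 3, and the call held with each library left out (highest adjusted p = 0.0190, without P14 replicate 2). Mycn, the Myc family member that drives granule progenitor division downstream of Sonic hedgehog, went from 232, 200 and 118 CPM to 82.1, 80.1 and 104 (-1.05 ± 0.23, adjusted p = 0.0143). Mycn was lost without P1 replicate 1 (adjusted p = 0.101) and in 3 more of the 6 fits with a library left out. The Notch effector Hey1 (-0.63 ± 0.17) and the LIM factor Lhx9 (-2.81 ± 0.57) made 4 called members of 20 progenitor transcription factors, all lower. Hey1 was lost without any library other than P1 replicate 3, and Lhx9 was lost in 3 of the 6 fits. The list did not move together. Barhl1, Id1, Id3 and Insm1 were not called, and the list's median change was -0.24 on the log2 scale with 8 members above 0. The list held 5 lower and 1 higher once P1 replicate 3 was left out, the last being Id4 (1.04 ± 0.33, adjusted p = 0.0416).

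Among D cyclins, their kinases, CDK inhibitors, pocket proteins and E2F factors, 4 of 19 tested genes were called lower at P14 and 0 higher, with a median log2 change of -0.34. Ccnd1, the D-type cyclin induced by mitogens, was at 496, 337 and 203 CPM at P1 and at 108, 99.0 and 112 at P14 (log2 change -1.70 ± 0.35, adjusted p = 0.0120). Its kinase partner Cdk6 changed by -1.80 ± 0.38, the pocket protein Rbl1 by -1.17 ± 0.24 and the repressor E2f7 by -0.88 ± 0.24. These were the 4 called members. Ccnd2, another D-type cyclin of granule progenitors, went from 1338, 1346 and 1004 CPM to 856, 703 and 802. Its libraries did not overlap, yet the change of -0.64 ± 0.25 did not pass (adjusted p = 0.113). Leaving P1 replicate 3 out added Cdkn1c, a CDK inhibitor (-1.15 ± 0.27), among the lower genes, and the inhibitors Cdkn1a (0.86 ± 0.27) and Cdkn2b (1.95 ± 0.48) among the higher ones. None of the 4 calls held without P1 replicate 1, each was called in 1 or 2 of the 6 fits with a library left out, and the highest adjusted p for Ccnd1 was 0.0815.

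Most genes of the DNA replication machinery fell. Of 36 tested genes, 27 were called lower and 0 higher, against 5.31% of all genes called lower, and all 36 had a negative change with a median of -1.01 on the log2 scale. Mcm6, a subunit of the replicative helicase (chr1:130228168-130256233, minus strand, mm9), was at 403, 351 and 221 CPM at P1 and at 104, 97.0 and 115 at P14. All P14 libraries lay below P1 replicate 3, and the log2 change was -1.63 ± 0.22 (adjusted p = 0.000932). Cdc6, which loads that helicase at origins, went from 42.96, 39.2 and 25.1 CPM to 13.99, 12.7 and 15.3 (-1.35 ± 0.21, adjusted p = 0.00247). Further changes were -1.34 ± 0.26 for Pole, the catalytic subunit of polymerase epsilon, -1.33 ± 0.35 for the thymidine kinase Tk1, -1.22 ± 0.21 for the origin factor Mcm10 and -1.24 ± 0.27 for Orc1. The lower calls without P1 replicate 3 were 32 with a median of -1.19. Of the 27 calls, 5 held without P1 replicate 1, 7 without P1 replicate 2, 10 without P14 replicate 1, 4 without P14 replicate 2 and 10 without P14 replicate 3. Mcm6, Cdc6, Mcm10 and Rrm2, the small subunit of ribonucleotide reductase, were called in every one of these fits.

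Most mitotic genes also fell. Of 38 tested, 26 were called lower and 0 higher, all 38 had a negative change, and the median was -0.92 on the log2 scale. Bub1, a kinase of the spindle checkpoint, was at 121, 114 and 76.1 CPM at P1 and at 43.1, 43.2 and 46.9 at P14 (-1.22 ± 0.21, adjusted p = 0.00516). Top2a, which untangles sister chromatids, went from 1048, 951 and 685 CPM to 467, 398 and 473 (-1.01 ± 0.20, adjusted p = 0.00950). For both genes the order was the same, with P1 replicate 3 between the other P1 libraries and P14. Levels at P14 stayed well above 0, so transcripts of dividing cells were reduced and not lost. Kif20b, Ndc80, Nusap1, Cenpe and Kif2c, which act on the spindle and the kinetochore, changed by -1.18 to -1.08. Mki67, the proliferation antigen, went from 1115, 1011 and 771 CPM to 635, 448 and 551, and its change of -0.83 ± 0.31 did not pass (adjusted p = 0.105, and 0.0680 without P1 replicate 3). The lower calls became 33 once P1 replicate 3 was left out. Bub1 alone of the 26 was called in each fit with a library left out, and 1 call held without P1 replicate 1, 1 without P1 replicate 2, 4 without P14 replicate 1, 1 without P14 replicate 2 and 4 without P14 replicate 3.

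The promoters of these cell cycle genes were read for the motifs through which the class is known to be controlled, E2F sites for the G1/S genes and CCAAT boxes and cell cycle genes homology region (CHR) elements for the G2/M genes. Sequences are the 250 bases before the annotated start, from RefSeq on GRCm38.p6, and 29 of the 36 replication genes and 32 of the 38 mitotic genes had an entry. An E2F match (TTTGGCGC, TTTCCCGC or TTTCGCGC on either strand) was present in 8 of 29 replication promoters (27.6%), in 1 of 32 mitotic promoters (3.12%), in 2.7% of the 11565 promoters of genes tested, and in 1.59% of all 27025 promoters of this length. A CCAAT match on either strand was present in 62.1%, 75%, 35.5% and 34.5% of these sets, and a CHR match (TTTGAA or TTCGAA on either strand) in 24.1%, 31.2%, 12.2% and 17.4%. Over all genes called lower at P14, 6.24% of 609 promoters held an E2F match, against 1.41% of 427 promoters of genes called higher. The promoters below show a replication gene with several E2F matches, a replication gene with a single one, and a pair of mitotic genes with CCAAT matches and none for E2F. Each is printed 5′ to 3′ on the strand of its gene, with the matches in capitals and all else in lower case.
Mcm6: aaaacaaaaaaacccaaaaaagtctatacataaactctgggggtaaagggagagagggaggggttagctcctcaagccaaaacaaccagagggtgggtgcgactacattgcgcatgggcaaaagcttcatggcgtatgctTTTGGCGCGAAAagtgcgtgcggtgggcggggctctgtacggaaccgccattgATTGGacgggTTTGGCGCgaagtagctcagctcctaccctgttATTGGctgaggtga
Cdc6: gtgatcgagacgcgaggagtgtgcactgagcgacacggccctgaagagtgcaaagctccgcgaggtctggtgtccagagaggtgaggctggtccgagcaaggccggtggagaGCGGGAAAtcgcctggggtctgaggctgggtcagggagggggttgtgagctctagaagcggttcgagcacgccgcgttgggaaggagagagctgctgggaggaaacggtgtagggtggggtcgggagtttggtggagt
Bub1: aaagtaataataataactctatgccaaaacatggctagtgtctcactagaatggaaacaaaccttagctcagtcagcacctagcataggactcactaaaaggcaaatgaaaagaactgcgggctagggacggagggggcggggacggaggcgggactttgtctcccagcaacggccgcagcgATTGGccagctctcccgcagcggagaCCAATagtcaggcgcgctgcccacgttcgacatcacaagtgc
Ccnb1: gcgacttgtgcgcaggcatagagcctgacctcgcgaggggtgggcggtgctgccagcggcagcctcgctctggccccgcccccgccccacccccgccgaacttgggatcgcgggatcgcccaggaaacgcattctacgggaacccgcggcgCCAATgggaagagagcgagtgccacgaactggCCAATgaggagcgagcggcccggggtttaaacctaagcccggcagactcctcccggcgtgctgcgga

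The Mcm6 window (chr1:128359706-128359955, minus strand, GRCm38.p6) held 3 E2F matches, of which the first 2 overlap in a single run of capitals, and 2 CCAAT matches read on the opposite strand. The Cdc6 window (chr11:98907901-98908150, plus strand) held 1 E2F match on the opposite strand and 0 CCAAT matches. Bub1 (chr2:127831860-127832109, minus strand) and Ccnb1 (chr13:100786487-100786736, minus strand), the mitotic cyclin, held 2 CCAAT matches each. No CHR match lay in any of the printed windows. Ccnb1 went from 83.7, 73.9 and 53.7 CPM at P1 to 35.8, 37.6 and 36.7 at P14 (log2 change -0.94 ± 0.20, adjusted p = 0.0131), with no overlap. A match is a run of letters, and binding was not measured in these libraries.

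Receptors and ligands of axon guidance and migration went both ways. Cxcr4, the chemokine receptor that holds granule progenitors at the pial surface, was at 169, 165 and 89.6 CPM at P1 and at 38.4, 37.1 and 40.6 at P14. The P14 libraries were alike and below P1 replicate 3, with a log2 change of -1.86 ± 0.25 (adjusted p = 0.000948). Robo3, a receptor of commissural axons, went from 11.6, 14.5 and 2.79 CPM to 0.101, 0.241 and 0.234 (-5.60 ± 1.00, adjusted p = 0.00566). The Robo ligand Slit1 changed by -3.47 ± 0.47, the ephrin receptor Epha5 by -2.51 ± 0.41 and the repellent ligand Sema3a by -1.41 ± 0.18. The netrin receptor Dcc went from 483, 395 and 248.7 CPM to 140, 74.9 and 111 (-1.79 ± 0.34, adjusted p = 0.00845). Another netrin receptor moved in the opposite direction, Unc5b, from 43.4, 52.7 and 137 CPM to 221, 186 and 199 (1.38 ± 0.40, adjusted p = 0.0443). Sema4d also rose (1.23 ± 0.34). Of 33 tested members 8 were called lower and 2 higher, with a median change of -0.15 on the log2 scale, and without P1 replicate 3 the calls were 10 and 5. Cxcr4, Robo3, Slit1, Epha5 and Sema3a were called with each library left out, Dcc was lost without P14 replicate 2 (adjusted p = 0.0650) and in 1 other fit, and the 2 rises were lost without any library other than P1 replicate 3.

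Genes of young postmitotic neurons were not called with all libraries. Dcx, a microtubule protein of migrating neurons, was at 1158, 877 and 1240 CPM at P1 and at 1134, 796 and 901 at P14, with overlapping libraries. Tubb3, the neuronal tubulin, was at 669, 545 and 676 CPM at P1 and at 737, 796 and 798 at P14 (log2 change 0.30 ± 0.35, adjusted p = 0.622). Of 24 tested members 0 passed in either direction, with a median change of 0.23 on the log2 scale. Once P1 replicate 3 was left out, 3 passed as higher and 2 as lower. The higher ones were the adhesion proteins of axons Cntn2 (1.90 ± 0.53), L1cam (1.39 ± 0.39) and Nfasc (1.87 ± 0.34), and Nnat was among the lower (-1.24 ± 0.40).

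Transcription factors of granule neurons changed little as a list. Neurod1, which promotes granule neuron differentiation, was at 575, 536 and 953 CPM at P1 and at 1189, 1126 and 1107 at P14. P1 replicates 1 and 2 were close together, P1 replicate 3 was nearer to P14, and the change of 0.73 ± 0.29 did not pass (adjusted p = 0.120) but did without that library (1.04 ± 0.30, adjusted p = 0.0290). Of 25 tested members, 2 were called lower, among them Meis2 (-2.34 ± 0.59), and 0 higher, and the median change was 0.38 on the log2 scale. Both calls were lost when any library other than P1 replicate 3 was left out. Neurod1, Etv1, Mef2d and Bcl6 were called higher in the fit without P1 replicate 3, and 3 members lower. Etv1, an activity-dependent factor of maturing granule cells, went from 23.5, 22.3 and 58.5 CPM to 72.5, 55.1 and 56.6, so that P1 replicate 3 lay within the P14 range.

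Before the genes that rose are described, the markers of other cells that moved with them are given. The summed level of 18 genes of myelinating oligodendrocytes was 238, 855 and 4910 CPM in P1 replicates 1 to 3 and 7866, 8532 and 8020 CPM in P14 replicates 1 to 3, and the P7 libraries had 943 to 2165. All 18 lay apart between the ages, against 51.4% of all genes (66.9% of all genes without P1 replicate 3), and P1 replicate 3 carried more myelin transcript than any P7 library. The summed level of 20 stress and immediate early genes was 2169, 2693 and 3023 CPM at P1 and 3872, 4219 and 4133 at P14, again without overlap. The part of either in the rises described next was not tested.

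Presynaptic genes were the list with the most rises. Of 34 tested, 12 were called higher and 0 lower, against 3.63% of all genes called higher, with a median change of 0.96 on the log2 scale. Slc17a7, the vesicular glutamate transporter of mature granule cells (chr7:52419291-52431508, plus strand, mm9), was at 20.9, 32.3 and 144 CPM in P1 replicates 1 to 3 and at 239, 250 and 245 in P14 replicates 1 to 3. P1 replicates 1 and 2 were low, P1 replicate 3 lay between them and P14, and the log2 change was 1.90 ± 0.50 (adjusted p = 0.0324), or 3.20 ± 0.29 without that library (adjusted p = 3.11e-05). Snap25, a SNARE protein of vesicle fusion (chr2:136539189-136608164, plus strand, mm9), went from 122, 126 and 468 CPM to 672, 721 and 676 (1.53 ± 0.40, adjusted p = 0.0313). Cplx1, which clamps the SNARE complex, went from 76.6, 71.5 and 188 CPM to 272, 262 and 274 (1.27 ± 0.28, adjusted p = 0.0156). The groups did not overlap in any of these genes. Syp and Syn2, proteins of the vesicle membrane and its surface, changed by 1.18 ± 0.26 and 0.97 ± 0.27, and Syt12, a synaptotagmin, by 1.83 ± 0.51. In the fit without P1 replicate 3, 24 members were called higher and 0 lower, with a median of 1.39, and the additional ones included Sncb, Rph3a, Unc13c and Syt2. None of the 12 calls held without P1 replicate 1, P1 replicate 2, P14 replicate 1 or P14 replicate 2, and 1 held without P14 replicate 3. The named genes kept their direction in every fit that left out a library.

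**Figure D3:**
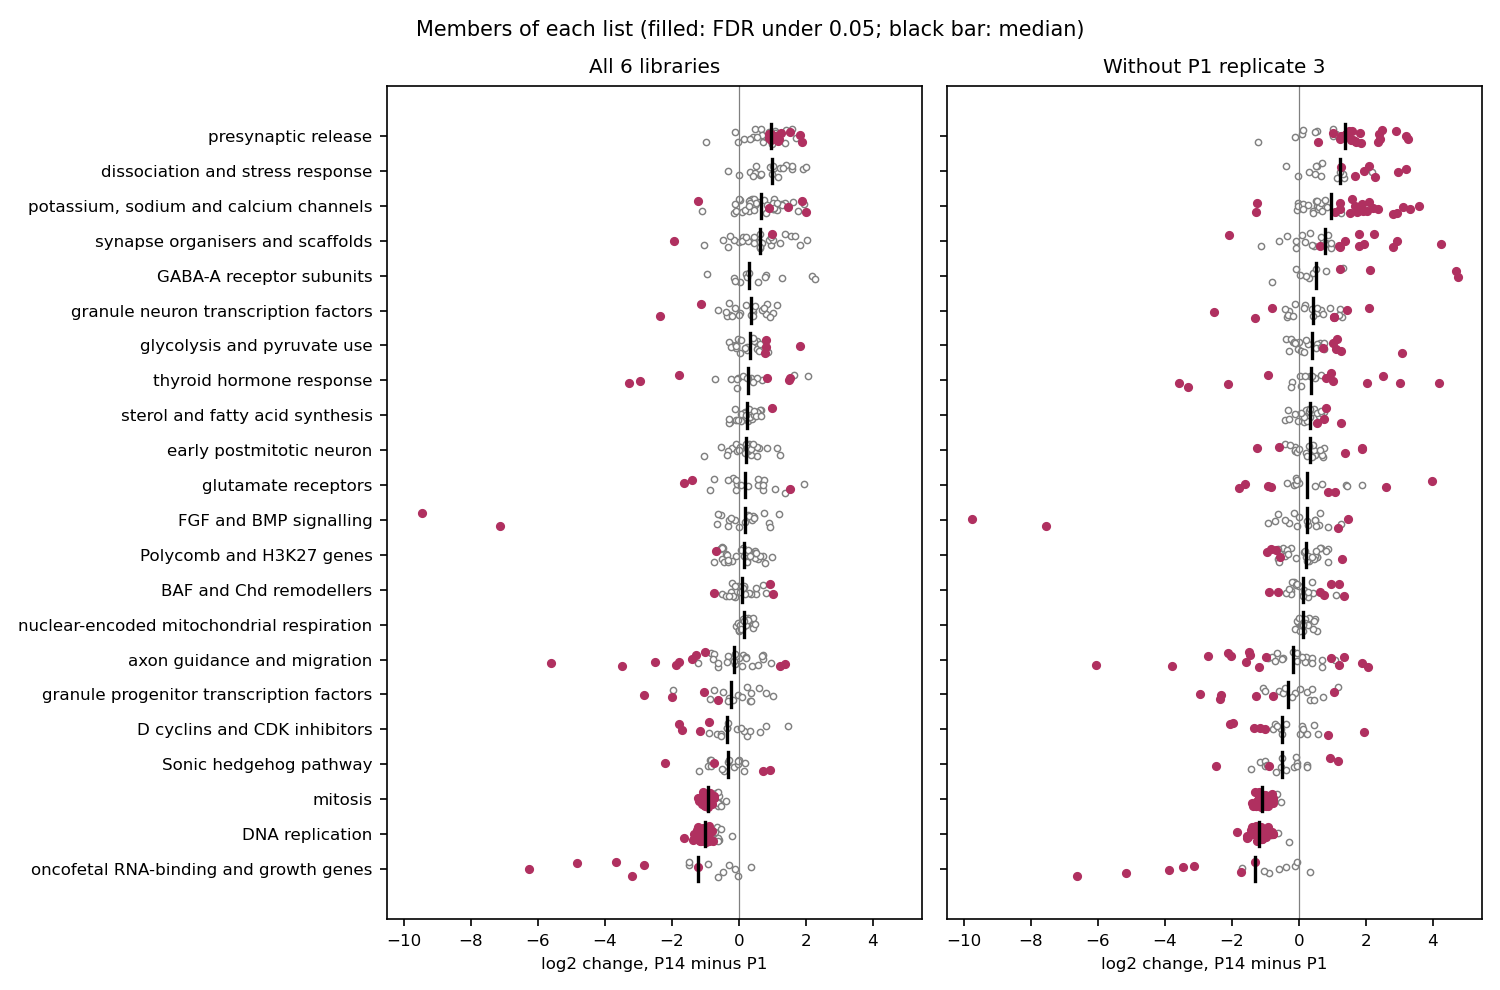
Log2 change, P14 minus P1, of every tested member of the pathway and quality lists, with all 6 libraries on the left and without P1 replicate 3 on the right. Filled points passed an adjusted p under 0.05 and black bars are medians, which run from -1.22 for the oncofetal list to 1.00 for the stress list on the left. DNA replication and mitosis form narrow groups below 0 on both sides, and the presynaptic list gains filled points on the right.

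Among potassium, sodium and calcium channels, 4 of 42 tested genes were called higher and 1 lower, with a median of 0.66 on the log2 scale. Kcnj9, a subunit of G protein-gated potassium channels, was at 2.02, 3.57 and 11.6 CPM at P1 and at 20.3, 21.8 and 21.5 at P14 (log2 change 1.88 ± 0.46, adjusted p = 0.0243). Its P14 libraries were alike and above P1 replicate 3. The leak channel Kcnk1 (1.46 ± 0.42) and the calcium-gated potassium channel Kcnn2 (0.91 ± 0.25) also rose. Scn3a, the sodium channel alpha subunit of embryonic neurons, went down, from 32.6, 24.9 and 25.6 CPM to 13.2, 10.04 and 12.8 (-1.21 ± 0.20, adjusted p = 0.00366). In Scn3a, P1 replicate 3 lay with the other P1 libraries, and the call held with each library left out. Leaving out P1 replicate 3 gave 20 and 2 calls with a median of 0.96, among them Kcnk3 (3.58 ± 0.39) and Kcna1 (3.12 ± 0.46). The 4 rises were lost when any library other than P1 replicate 3 was left out.

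Receptors for the inputs of granule cells were called largely without P1 replicate 3. Gabra6, the GABA-A subunit that marks mature granule cells, was at 1.12, 12.5 and 102 CPM at P1 and at 161, 202 and 164 at P14, with the P7 libraries between 2.54 and 10.3. P1 replicate 3 thus lay above every P7 library and below every P14 library, and P1 replicate 2 was above the P7 range too. The change of 2.19 ± 1.00 (log2) did not pass (adjusted p = 0.176), and it was 4.68 ± 0.92 without P1 replicate 3 (adjusted p = 0.00445). Gabrd, the extrasynaptic subunit that pairs with it, was at 0.386, 3.10 and 25.6 CPM at P1 and at 41.5, 49.9 and 49.8 at P14 (2.28 ± 0.85, adjusted p = 0.0977, and 4.74 ± 0.70, adjusted p = 0.000520, without P1 replicate 3). Of 13 GABA-A subunits tested, 0 were called with all libraries and 4 were called higher without P1 replicate 3, which also included Gabrb2. The median change of the subunits was 0.31 with all libraries and 0.50 without P1 replicate 3.

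Glutamate receptors split by subunit. Grin1, the obligatory NMDA receptor subunit, went from 26.5, 32.2 and 125 CPM to 204, 148 and 183 (log2 change 1.54 ± 0.46, adjusted p = 0.0496). Grm3, a metabotropic receptor, went from 118, 120 and 80.1 CPM to 36.8, 37.4 and 29.3 (-1.62 ± 0.34, adjusted p = 0.0124). Neither gene's libraries overlapped between the ages. The kainate receptor Grik3 was also lower (-1.39 ± 0.40, adjusted p = 0.0444). These were the 3 calls among 20 tested, and each was lost when any library other than P1 replicate 3 was left out. Gria2, the AMPA subunit that limits calcium entry, overlapped between the ages (-0.16 ± 0.24). Grin2c, the NMDA subunit of mature granule cells, was at 23.4, 32.3 and 63.2 CPM at P1 and at 96.4, 98.7 and 112 at P14, but only at 3.75 to 6.40 in the P7 libraries. Its fitted spread was wide and the change of 1.37 ± 0.96 did not pass (adjusted p = 0.381). That spread is fitted over all 15 libraries and not only over those of P1 and P14, whose SDs were 20.9 and 8.4 CPM. The fit without P1 replicate 3 held 4 higher and 4 lower, and Grm4, the metabotropic receptor of parallel fibre terminals, was among the higher (3.97 ± 0.63).

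Synapse organisers gave a single call in each direction with all libraries. Cbln3, a cerebellin secreted by granule cells, was at 5.45, 21.6 and 159 CPM at P1 and at 261, 260 and 243 at P14, with the P7 libraries between 9.01 and 15.1. Its change of 2.04 ± 0.79 (log2) did not pass (adjusted p = 0.112), and it was 4.23 ± 0.63 without P1 replicate 3 (adjusted p = 0.000554). Cbln1, the cerebellin that binds neurexins at parallel fibre synapses, was at 43.1, 31.7 and 61.0 CPM at P1 and at 81.2, 93.5 and 87.2 at P14 (0.95 ± 0.29, adjusted p = 0.0507). It lay just outside the threshold with all libraries and passed without P1 replicate 3 (adjusted p = 0.0132). Ncdn, a dendritic protein, was called higher (1.00 ± 0.26), and Cbln4, a further cerebellin at low level, was called lower (-1.93 ± 0.42). Both were lost when any library other than P1 replicate 3 was left out. Over 30 tested members the median change was 0.62 on the log2 scale, and without P1 replicate 3 the calls were 11 higher and 1 lower.

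Ezh2 was the only call among 32 Polycomb and H3K27 genes tested, whose median change was 0.14 on the log2 scale. Ezh2, the methyltransferase of Polycomb repressive complex 2 that deposits H3K27me3, was at 189, 171 and 127 CPM at P1 and at 105, 97.9 and 102 at P14. The libraries did not overlap, and the change was -0.68 ± 0.19 on the log2 scale (adjusted p = 0.0362). It was -0.83 ± 0.19 without P1 replicate 3 (adjusted p = 0.00756), and it was lost when any other library was left out (highest adjusted p = 0.198, without P1 replicate 1). Its partners Eed and Suz12 had changes of -0.39 ± 0.21 and -0.50 ± 0.20 and did not pass (adjusted p = 0.232 and 0.124). Cbx2, Phf19 and Rbbp7 in the fit without P1 replicate 3 joined Ezh2 as lower, and 1 member was higher.

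Among BAF and Chd chromatin remodellers, 2 of 24 tested genes were called higher, 1 was called lower and the median log2 change was 0.11. Actl6b, the subunit of the neuronal complex also called BAF53b, was at 37.6, 29.1 and 56.8 CPM at P1 and at 80.6, 86.9 and 85.4 at P14 (log2 change 1.03 ± 0.26, adjusted p = 0.0277). Actl6a, its counterpart in progenitors, was at 126, 112 and 88.3 CPM at P1 and at 72.2, 78.8 and 80.3 at P14. Actl6a did not pass with all libraries (-0.49 ± 0.19, adjusted p = 0.102) and did without P1 replicate 3 (-0.62 ± 0.20, adjusted p = 0.0407). Smarcd3 was called higher (0.93 ± 0.26). Smarcc1 was called lower in the gene table (-0.74 ± 0.22), but its change was 0.42 in the start site model table and 0.41 in the transcript table, so its direction depends on the table. Chd7, a remodeller with a known part in granule cell development, overlapped between the ages (0.17 ± 0.37). The calls without P1 replicate 3 were 5 higher and 2 lower. The 3 calls were lost when any library other than P1 replicate 3 was left out.

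Among targets and mediators of thyroid hormone, which paces cerebellar maturation, Klf9 rose. Klf9 is a hormone-induced transcription factor, and it was at 32.96, 51.9 and 168 CPM at P1 and at 252, 238 and 237 at P14 (log2 change 1.52 ± 0.43, adjusted p = 0.0412, and 2.51 ± 0.29, adjusted p = 9.89e-05, without P1 replicate 3). The receptor Thra went from 221, 183 and 279 CPM to 377, 420 and 419 (0.83 ± 0.20, adjusted p = 0.0235), while Thrb was not called (-0.22 ± 0.26). Hr, a corepressor and classical hormone target, was at 1.29, 5.51 and 37.8 CPM at P1 and at 61.3, 60.5 and 64.7 at P14, and it passed only without P1 replicate 3 (4.19 ± 0.55, adjusted p = 0.000250). Rxrg, a partner of the receptor, went from 14.9, 16.4 and 6.86 CPM to 1.38, 1.18 and 1.34 (-3.29 ± 0.44, adjusted p = 0.000932) and was called in every fit with a library left out. The hormone-binding protein Crym (-2.96 ± 0.57) and the neurotrophin receptor Ngfr (-1.80 ± 0.36) were lower, and Thrsp was higher (1.49 ± 0.38). The list of 20 thus held 3 higher and 3 lower, and without P1 replicate 3 it held 7 and 4. The 3 rises were lost when any library other than P1 replicate 3 was left out, Crym was lost in 2 of the 6 fits and Ngfr in 4.

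Energy metabolism showed a small set of rises. The glycolytic enzymes Eno2, the neuronal enolase (10.5, 24.9 and 90.9 CPM at P1 against 149.5, 147 and 150.6 at P14), Pfkm and Aldoa, and the monocarboxylate transporter Slc16a1, were called higher, with log2 changes of 1.82 ± 0.52, 0.82 ± 0.20, 0.82 ± 0.23 and 0.79 ± 0.23. These were 4 of 24 tested, with 0 lower and a median of 0.35. Hk2 and Ldha, further enzymes of glycolysis, were not called (-0.02 ± 0.37 and -0.20 ± 0.22). In the sterol list Mvd was the only call of 26 (1.00 ± 0.26), with 4 higher and 0 lower when P1 replicate 3 was left out. All 5 of these calls were lost when any library other than P1 replicate 3 was left out. Of 21 nuclear genes of mitochondrial respiration, 0 were called in either fit.

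Transcripts of other cell types were present at both ages. Among myelinating oligodendrocyte genes, Mog, a glycoprotein of the myelin surface, was at 3.13, 13.6 and 91.9 CPM at P1 and at 157, 196 and 176 at P14. With all libraries 2 of the 18 were called higher, Cnp (1.95 ± 0.56) and Pllp (1.97 ± 0.49), with a median of 1.99 on the log2 scale. In the fit without P1 replicate 3 all 18 were called higher with a median of 3.87. The precursor marker Pdgfra went the other way, from 321, 302 and 204 CPM to 118, 98.9 and 122 (-1.29 ± 0.32, adjusted p = 0.0270). It was the exception in its list of 9 precursor genes, of which 8 had a change above 0, with a median of 0.56. Without P1 replicate 3, 4 precursor genes were called higher and 1 lower. The summed level of the 9 genes of oligodendrocyte precursors, 643, 609 and 676 CPM at P1 and 733, 622 and 707 at P14, overlapped. Cnp, Pllp and Pdgfra were called in none of the fits that left out another library.

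Astroglial markers summed to 3552, 4067 and 5730 CPM at P1 and to 6838, 6123 and 5081 at P14, so P1 replicate 3 lay within the P14 range. S100b was the only one of 14 called with all libraries (1.78 ± 0.49), and 6 were called higher without P1 replicate 3, Aqp4, Gfap, Agt and Hopx among them. Endothelial markers summed to 543, 787 and 936 CPM at P1 and to 1211, 1237 and 1160 at P14, with Ly6c1 called of 12 and 5 called without P1 replicate 3. Choroid plexus and ependymal markers separated the P1 libraries from each other, at 430, 10470 and 3998 CPM against 5858, 8600 and 5203 at P14, and 0 of 10 were called. Microglial markers summed to 170 to 255 CPM at P1 and 246 to 347 at P14, and 0 of 13 were called in either fit. In the list of vessel-associated and meningeal cells Mgp was called (2.05 ± 0.55) of 12, with summed levels of 772 to 1122 CPM at P1 and 998 to 1171 at P14. In that list 6 changes were above 0 and 6 below, with a median of -0.16. Without P1 replicate 3, 2 were called higher and 1 lower, the collagen gene Col3a1 (-1.48 ± 0.35, adjusted p = 0.00929). S100b, Ly6c1 and Mgp were called in none of the fits that left out a library other than P1 replicate 3.

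**Figure D4:**
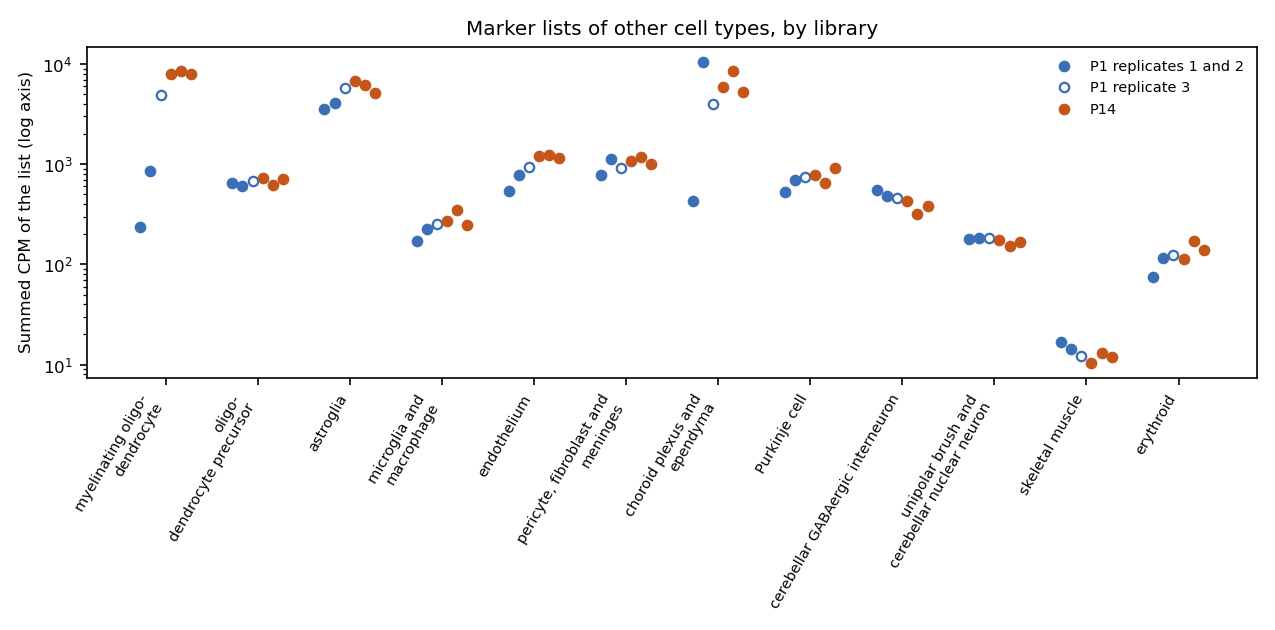
Summed CPM of the markers of 12 other cell types in each library on a log axis, with P1 replicate 3 as an open circle. The myelinating oligodendrocyte sum goes from 238 and 855 in P1 replicates 1 and 2 through 4910 in P1 replicate 3 to between 7866 and 8532 at P14, and the choroid plexus sum is lowest in P1 replicate 1 at 430 and highest in P1 replicate 2 at 10470.

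Some markers of inhibitory neurons or of their precursors were lower at P14. Tfap2b, a factor of GABAergic interneuron precursors, went from 111, 88.2 and 44.1 CPM at P1 to 16.5, 8.35 and 15.04 at P14 (log2 change -2.61 ± 0.35, adjusted p = 0.000948). Pax2, which marks interneuron precursors as they leave the cycle, went from 70.3, 46.8 and 30.2 CPM to 23.9, 14.6 and 21.8 (-1.29 ± 0.38, adjusted p = 0.0494). Sst (-2.55 ± 0.51) and Lypd6 (-1.45 ± 0.27) made 4 lower of 12 tested, and the summed level was 459 to 550 CPM at P1 and 317 to 426 at P14. The other members of the list were not called, and of all 12 changes 8 were below 0 and 4 above. Tfap2b and Lypd6 were called in every fit with a library left out, Sst was lost in 2 of the 6, and Pax2 was lost when any library other than P1 replicate 3 was left out. Foxp2, used here among Purkinje cell markers, went from 37.6, 50.7 and 29.7 CPM to 10.6, 7.69 and 9.13 (-2.11 ± 0.29, adjusted p = 0.00105), and it too was called in every fit. The Purkinje cell sum overlapped, at 534 to 746 CPM at P1 and 644 to 922 at P14. Of 14 Purkinje cell genes tested, 3 were called higher and 2 lower without P1 replicate 3. The higher ones included Pvalb (2.42 ± 0.60) and Ppp1r17 (3.86 ± 0.70), and Lhx5 joined Foxp2 as lower.

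Skeletal muscle genes were at trace level, with sums of 12.1 to 16.8 CPM at P1 and 10.5 to 12.9 at P14. Myh8, the perinatal myosin heavy chain, nevertheless fell in a clear step, from 8.15, 7.25 and 2.53 CPM to 0.101, 0.121 and 0.134 (-5.60 ± 0.55, adjusted p = 9.53e-05), and was called in every fit with a library left out. Myh3, the embryonic myosin, and Actc1 were also lower (-1.60 ± 0.34 and -2.78 ± 0.66), and Des was higher (1.53 ± 0.43), and these 3 were lost when any library other than P1 replicate 3 was left out. Erythroid genes overlapped between the ages in all 5 tested. Among 20 stress and immediate early genes 0 were called with all libraries and 7 were called higher without P1 replicate 3, including Npas4 (3.18 ± 0.56), Atf3 (2.97 ± 0.74) and Nr4a1 (2.26 ± 0.71). The median change of that list was 1.00 on the log2 scale with all libraries. Egr1, a further immediate early gene, lay between 648 and 809 CPM in all 6 libraries and overlapped between the ages (0.0037 ± 0.86). Its SE too comes from a spread fitted over all 15 libraries.

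Among called genes that averaged 5 CPM or more and did not overlap between the ages, the 12 steepest falls included Cdhr1, Chrnb4, Deup1, Optc, Mmp9, Nphs1 and Lrp2 beside Fgf15, Igf2bp1, Lin28b, Slit1 and Rxrg. Chrnb4, a nicotinic acetylcholine receptor subunit, went from 23.8, 19.9 and 8.03 CPM to 0.674, 1.15 and 1.504 (log2 change -3.95 ± 0.47, adjusted p = 0.000431). Cdhr1, a cadherin best known from photoreceptors, went from 34.3, 24.1 and 14.2 CPM to 0.978, 0.814 and 0.936 (-4.73 ± 0.51, adjusted p = 0.000224). Deup1, which builds the deuterosomes that multiply centrioles in ciliated cells, changed by -3.89 ± 0.48. In each of these 3 genes all P14 libraries lay far below P1 replicate 3. Optc, an extracellular matrix protein, Nphs1, the adhesion protein nephrin, and Lrp2, an endocytic receptor, changed by -3.44 to -3.28. Mmp9, a matrix protease, changed by -3.39 ± 0.66 and was lost in 2 of the 6 fits that left out a library, and the other 11 were called in all 6. Without P1 replicate 3 the pseudogene Rps13-ps1 joined this set, and its value is uncertain because its reads can be shared with the ribosomal protein gene Rps13.

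The 12 steepest rises with all libraries included Mgp, Zdhhc22, Pllp, Shisal2b, Cnp, Ajm1, Abcc6, Cldn3, Slc17a7, Gsn and Kcnj9, with changes of 1.88 to 2.05 on the log2 scale. Ajm1, a junction protein, was at 26.3, 35.6 and 152 CPM at P1 and at 254, 266 and 304 at P14 (1.94 ± 0.56, adjusted p = 0.0451). Gsn, an actin-severing protein abundant in oligodendrocytes, went from 16.5, 48.9 and 170 CPM to 297, 282 and 293 (1.89 ± 0.56, adjusted p = 0.0484). P1 replicate 3 lay between the other P1 libraries and P14 in both. Without P1 replicate 3 the 12 steepest rises included Ermn, Gabrd, Nkx6-2, Gabra6, Mobp, Mybpc3, Opalin, Mog, Hapln2, Tmem125 and Mal, with changes of 4.33 to 4.76. Of these, Ermn, Mobp, Opalin, Mog and Mal are members of the myelinating oligodendrocyte list, and Gabrd and Gabra6 are the GABA-A subunits of mature granule cells. None of the 12 rises found with all libraries was called when a library other than P1 replicate 3 was left out, and their changes kept the same direction in each of those fits.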

How the data were processed

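RNA-seq counts per gene were compared between 3 P14 and 3 P1 libraries of cells labelled as granule neuron precursors. The authors deposited raw read counts per gene, per transcription start site model and per transcript, none of them normalized. Per the submitters' processing notes, Trimmomatic, TopHat, StringTie and HTSeq were used with mm9. The strand setting is not given in the sources used here, so reads of overlapping or antisense genes cannot be told apart. HTSeq's summary lines name no gene and were left out. Of the records, 46.6% to 54.0% lay in genes in these 6 libraries, 22.9% to 29.1% had several alignments, and 0.606% to 0.749% were ambiguous. Counts of paralogs and pseudogenes are therefore uncertain.

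Genes were tested with edgeR 4.0.16 in R 4.3.3. Libraries were scaled with TMM, and filterByExpr (count 10, total 15) left 15259 genes. The quasi-likelihood fit took in all 15 libraries with a mean for each of the 5 groups (10 residual degrees of freedom), and P14 minus P1 was tested with the F-test and a Benjamini-Hochberg adjusted p under 0.05. Changes are on the fitted log2 scale, and the SE is the size of the change divided by the square root of F. The method was tested on simulated data in which no library was placed between the ages. That test therefore cannot cover a library such as P1 replicate 3. Principal components were computed on log2 CPM (prior count 2). Differences between replicate libraries exceeded counting noise in every pair, so none was taken as a duplicate.

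The alternatives were each library left out, DESeq2 1.42.0, limma voom 3.58.1 with sample weights, RLE scaling, no filter, fits on fewer groups, a replicate block and the other 2 tables. The members, gene lists and rules were chosen with earlier results of these data known. Genes were named as the first 3 of each list, up to 6 called members in each direction per list with the largest change, up to 4 more called only without P1 replicate 3, and the 12 largest rises and falls at a mean of at least 5 CPM with no overlap. Genes named outside this rule were chosen after their values were seen. They are Rrm2, Id1, Id3, Insm1, and those in the closing section. Symbols were matched exactly by Ensembl gene ID, and 14 listed genes that did not match, such as Pcna and Mcm4, were not analysed here. Values of some named genes are not reported here. Gene positions are those of the deposited transcript table, 1-based. Promoters were searched only in RefSeq's GRCm38.p6 sequences.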

Additional observations from a re-analysis of the deposited data

How the results depend on the processing

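With each library left out in turn, the number of genes higher at P14 ranged from 3 to 1476 (554 with all libraries) and of genes lower from 145 to 1234 (810), the highest both times without P1 replicate 3 and the others at most 49 and 253. DESeq2 called 1198 higher and 1196 lower. Fits to the postnatal ages called 1518 and 1606, to P1 and P14 libraries only 1791 and 2252, and to the same without P1 replicate 3 3594 and 3320. Limma voom with sample weights called 4146 and 3947. RLE scaling gave 559 and 778, and no filter 516 and 725. Counts per start site model gave 532 and 807 of 16378 models tested, and counts per transcript 619 and 1126 of 21480 transcripts. No shared call changed direction in any of these. The replicate block gave 594 and 701. The correlations of same-numbered deviations from the P1 and P14 means were -0.053, 0.16 and -0.10, and only replicate 2 correlated best with its own number. With 3 libraries per group these values cannot settle whether same-numbered libraries share an origin, and the main fit does not pair them. Why the counts moved was not tested, beyond the fewer libraries in some fits. Among 244 named genes, counting those called in either of the compared fits, the direction reversed only for Smarcc1. Not every named gene had a value in the start site model and transcript tables, so some could not be compared there. The Smarcc1 change was 0.42 in the start site model table and 0.41 in the transcript table. Uncalled genes near 0 could change sign, such as Chd7, at 0.17 with all libraries and -0.03 in a fit with a library left out. Between 65 and 74 named genes lost their call when a library other than P1 replicate 3 was left out, 52 gained it with DESeq2, 104 without P1 replicate 3 and 124 with voom. List medians changed sign only near 0, for chromatin remodellers without P14 replicate 1 (-0.02), choroid plexus markers without P1 replicate 1 (-0.01) and vessel-associated markers in the start site model table (0.0053). Depth of 21550266 to 31115364 counts leaves genes under about 1 CPM with few counts.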

Other observations

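The 135 genes called with all libraries and with each library left out included Ptf1a, Gbx2, Neurog2, Msx3 and Dll1, which were picked after their values were seen. Ptf1a, which specifies the GABAergic neurons of the cerebellum, went from 11.2, 10 and 4.03 CPM in P1 replicates 1 to 3 to 0.641, 0.332 and 0.769 in P14 replicates 1 to 3 (log2 change -3.85 ± 0.59, adjusted p = 0.00244). Gbx2, a factor of the anterior hindbrain, went from 5.02, 5.27 and 1.88 CPM to 0.236, 0.301 and 0.167 (-4.08 ± 0.52, adjusted p = 0.000811). Neurog2 and Msx3 changed by -2.33 ± 0.39 and -3.33 ± 0.49, and the Notch ligand Dll1 by -1.90 ± 0.28. All P14 libraries lay below all P1 libraries in these genes, and P1 replicate 3 had the lowest P1 value in each.

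Only 3 of the 135 rose. Trim3, a ubiquitin ligase of neurons, was at 47.3, 50.8 and 77.9 CPM at P1 and at 115, 115 and 118 at P14 (0.98 ± 0.18, adjusted p = 0.00594). Diras1, a small GTPase of the brain, went from 14.03, 12.8 and 21.5 CPM to 33.6, 35.4 and 36.1 (1.12 ± 0.20, adjusted p = 0.00514). Elf5, an epithelial transcription factor, was at 0.0429, 0.155 and 0.264 CPM at P1 and at 1.11, 1.21 and 1.24 at P14, which rests on few counts.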
